A study of Mus musculus with 28 samples.

Results

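Srbd1 and Prkce are the 2 protein-coding genes on the Six2 side of the Six3 and Six2 locus within the measured range, and they were chosen as the restriction fragments over their annotated spans on chromosome 17 (mm10). Srbd1 spans 85984665 to 86145216, 161 kb, and Prkce 86167785 to 86657919, 490 kb. They are 2 of the 10 protein-coding genes in the range that could be read from both viewpoints. Contacts were measured by 4C-seq, a proximity ligation assay that amplifies and sequences the restriction fragments ligated to a chosen viewpoint. The viewpoints were the Six2 promoter and PE Six3, the poised enhancer of Six3. From each there was 1 library of wild type (WT) cells and 1 of cells labelled del36, which lack the boundary of topologically associating domains (TADs) between Six3 and Six2, so 4 of the 28 samples of the series are used. The cells were mouse embryonic stem cells, line E14Tg2a. The cell type label names 2i and LIF, whereas the culture protocol describes serum and LIF. The sources used here do not say how many del36 clones were profiled.

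Prkce encodes protein kinase C epsilon, a serine/threonine kinase of the calcium-independent, diacylglycerol-activated class. Srbd1 encodes a protein with an S1 RNA-binding domain. In a 4C profile, signal falls with distance from the viewpoint inside a TAD, and a boundary lowers the signal beyond it. Both genes lie beyond the deleted boundary as seen from PE Six3 and on the near side of it as seen from the Six2 promoter, so the deletion can be read in both directions at the same genes. The deleted stretch, taken as the longest one between the viewpoints without reads in the PE Six3 del36 library, ran from 85629635 to 85666796 (37.2 kb).

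The Six2 promoter viewpoint lay 295 kb from the nearer end of Srbd1 and 478 kb from that of Prkce, and PE Six3 lay 499 and 682 kb away. In del36 the distances from PE Six3 are shorter by the deleted 37.2 kb, while those from the Six2 promoter are unchanged. Signal was taken within 1 Mb of the viewpoint, with 10 kb on each side left out. All of Srbd1 was in range from both viewpoints. Prkce was whole from the Six2 promoter but was cut at 86485766 from PE Six3, which left 318 kb, or 64.9%, of its span.

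The Prkce span holds 3 annotated promoters of long non-coding RNA genes, and they are shown because the 50-kb steps that hold the first 2 of them differed between WT and del36 in the same direction from both viewpoints, as described below. Each window is 300 bases around the annotated start, read on the minus strand, from RefSeq (GRCm38.p6, the assembly of mm10). They were chosen after their values were seen, as all the promoters that the sequence table holds inside both spans. They lie at chr17:86243257-86243556 (Gm52296), chr17:86287129-86287428 (2010106C02Rik) and chr17:86444938-86445237 (Gm30284). Capitals mark CATG, the site of NlaIII, the first enzyme of this 4C protocol, which reads the same on both strands.
Gm52296: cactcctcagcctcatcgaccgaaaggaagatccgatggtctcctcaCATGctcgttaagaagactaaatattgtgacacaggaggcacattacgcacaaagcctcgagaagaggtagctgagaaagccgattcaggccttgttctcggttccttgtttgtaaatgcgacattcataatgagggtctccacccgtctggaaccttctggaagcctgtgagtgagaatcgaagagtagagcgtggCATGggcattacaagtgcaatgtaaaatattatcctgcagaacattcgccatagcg
2010106C02Rik: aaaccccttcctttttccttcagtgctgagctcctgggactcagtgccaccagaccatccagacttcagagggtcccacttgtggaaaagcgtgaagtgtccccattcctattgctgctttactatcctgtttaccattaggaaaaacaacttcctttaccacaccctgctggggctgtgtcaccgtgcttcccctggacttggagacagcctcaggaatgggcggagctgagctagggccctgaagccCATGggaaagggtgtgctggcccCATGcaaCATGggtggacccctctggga
Gm30284: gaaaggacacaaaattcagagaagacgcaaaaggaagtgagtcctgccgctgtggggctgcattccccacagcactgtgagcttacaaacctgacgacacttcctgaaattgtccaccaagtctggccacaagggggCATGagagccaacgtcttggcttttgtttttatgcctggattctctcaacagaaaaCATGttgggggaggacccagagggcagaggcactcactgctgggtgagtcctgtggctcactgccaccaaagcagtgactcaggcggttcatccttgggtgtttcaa
CATG occurs 2 times in the Gm52296 window, 3 times in that of 2010106C02Rik and 2 times in that of Gm30284. Of all 32851 promoter windows of this length in the table, 61.1% hold at least 1 such site.

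The libraries held 2238911 to 7730539 reads, recovered from the deposited RPM values, which scale reads to the library total. Local reads were 165197 on 734 fragments in Six2 promoter WT, 237410 on 895 in Six2 promoter del36, 1212820 on 1073 in PE Six3 WT and 354836 on 1602 in PE Six3 del36. The PE Six3 pair thus differed in depth and in the number of fragments in opposite directions. In this pair the viewpoint fragment held 66.3% of all reads in WT and 35.2% in del36, and chromosome 17 held 93.2% and 82.8%. In the Six2 promoter pair these were 83.9% and 83.6%, and 88.3% and 89.5%. The part of these differences in the results below was not tested. With 1 library per condition there is no replicate and no test between conditions. Intervals are 95% intervals for counting error only, and they treat each read as an independent draw. Reads amplified by PCR without molecular identifiers are not independent molecules, so the intervals can be too narrow even for counting error. Differences below are between libraries.

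From the Six2 promoter, Srbd1 held less of the local signal in del36 and Prkce held more. Srbd1 held 19483 reads on 86 fragments in WT and 23371 reads on 106 fragments in del36. As shares of local reads these were 11.8% (11.6% to 12.0%) and 9.84% (9.72% to 9.96%), a log2 ratio of del36 over WT of -0.26 (-0.29 to -0.23). Prkce had 12542 WT reads on 86 fragments and 21229 del36 reads on 89. Its shares were 7.59% (7.47% to 7.72%) and 8.94% (8.83% to 9.06%), a log2 ratio of 0.24 (0.20 to 0.27). Both differences were under 1.5-fold. The sign for Srbd1 depended on the scale: on the deposited RPM it was 0.29, and in covered length, the summed length of fragments with reads, 0.04. That of Prkce was -0.16 in covered length.

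From PE Six3, across the deleted boundary, both genes held more of the local signal in del36. Over Srbd1 there were 47160 WT reads on 44 fragments and 17518 del36 reads on 109, or 3.89% (3.85% to 3.92%) and 4.94% (4.87% to 5.01%). The log2 ratio was 0.34 (0.32 to 0.37). The part of Prkce in range had 40244 WT reads on 54 fragments and 16370 del36 reads on 91, or 3.32% (3.29% to 3.35%) and 4.61% (4.54% to 4.68%), a log2 ratio of 0.48 (0.45 to 0.50). These differences too were under 1.5-fold. The same reads gave Srbd1 4.10% of the local fragments in WT and 6.80% in del36, and Prkce 5.03% and 5.68%.

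**Figure D1:**
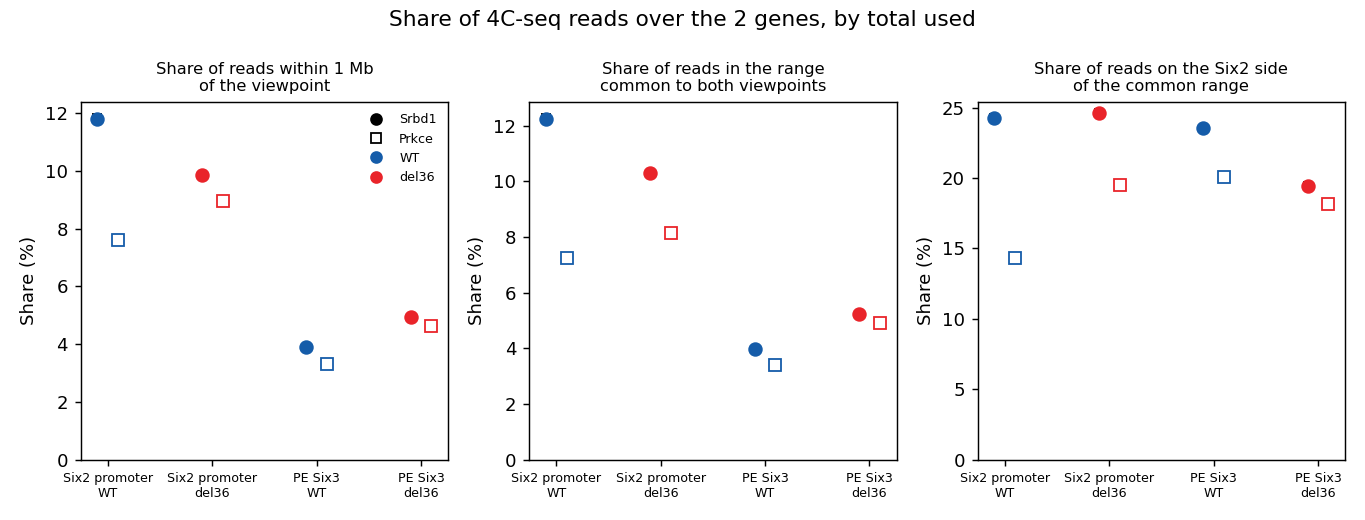
Share of reads over Srbd1 (filled circles) and Prkce (open squares) in each of the 4 libraries, in percent, with 3 totals: local reads, the range common to both viewpoints, and the Six2 side of that range. Blue marks WT and red del36, and the 95% Wilson intervals are smaller than most symbols. On the Six2 side alone, Srbd1 lay at 24.2%, 24.6% and 23.5% in the first 3 libraries and at 19.5% in PE Six3 del36.

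Over the range common to both viewpoints, 84689020 to 86485766, with 10 kb around both left out, the directions were the same. From the Six2 promoter Srbd1 held 12.2% in WT and 10.3% in del36, and Prkce, now cut at the same place for both viewpoints, 7.24% and 8.15%, a log2 ratio of 0.17. From PE Six3 Srbd1 held 3.98% and 5.24% and Prkce 3.39% and 4.90%, with log2 ratios of 0.40 and 0.53. In this range the shares of both genes were larger from the Six2 promoter than from PE Six3 in both genotypes. PE Six3 is the farther viewpoint by 203 kb in mm10, and in del36 by 37.2 kb less than that.

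A different total changed the picture. Within the Six2 side of the common range, the 786 kb from 10 kb past the Six2 viewpoint to 86485766, Srbd1 took up 24.2% of reads in Six2 promoter WT, 24.6% in Six2 promoter del36, 23.5% in PE Six3 WT and 19.5% in PE Six3 del36. Prkce took up 14.3%, 19.5%, 20.1% and 18.2% in the same order. Against this total Srbd1 was at a log2 ratio of 0.02 (-0.01 to 0.05) from the Six2 promoter, and the ratios from PE Six3 turned to -0.27 for Srbd1 and -0.14 for Prkce. The stretch between the Six2 viewpoint and Srbd1 held 54.7% of this side in PE Six3 WT and 59.2% in PE Six3 del36, and 58.8% and 50.8% from the Six2 promoter. The gap between the genes held 1.66% and 3.14% of it from PE Six3. Within this side from PE Six3, both genes thus had lower shares in del36, and the stretch before them and the gap had higher ones.

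Per unit of length Srbd1 was contacted more than Prkce in every library. Over the common range Srbd1 held 7.62% of reads per 100 kb and Prkce 2.28% in Six2 promoter WT, a ratio of 3.35 (3.27 to 3.43). In Six2 promoter del36 they held 6.40% and 2.56%, a ratio of 2.50 (2.45 to 2.55). From PE Six3 the ratio was 2.32 (2.29 to 2.35) in WT and 2.12 (2.07 to 2.17) in del36. Srbd1 is the nearer gene from both viewpoints, and the ratio was lower in del36 from both. Fragment density followed the same order between the genes. Over the common range Srbd1 had 53.6, 66.0, 27.4 and 67.9 fragments with reads per 100 kb, and Prkce 23.0, 23.3, 16.98 and 28.6. These are Six2 promoter WT, Six2 promoter del36, PE Six3 WT and PE Six3 del36, in that order. They include fragments with 1 read. Fragments with at least 10 reads numbered 50, 90, 35 and 91 in Srbd1 and 47, 60, 47 and 74 in Prkce, in the same order.

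The genes were also set against the spans at the same mm10 distances on the opposite side of the viewpoint. From the Six2 promoter, Srbd1 held 2.58 times (2.51 to 2.65) the reads of its mirror span in WT and 1.27 times (1.24 to 1.29) in del36. The mirror span, which lies in Camkmt across the deleted stretch, went from 4.58% to 7.76% of local reads. Prkce went from 1.03 times (1.01 to 1.06) to 0.782 times (0.768 to 0.796) its mirror span. From PE Six3, Srbd1 held 0.567 times (0.561 to 0.574) the reads of its mirror span in WT and 1.065 times (1.04 to 1.09) in del36, and Prkce 0.528 times (0.521 to 0.534) and 0.748 times (0.733 to 0.763). The mirror span of Srbd1 held 6.86% in WT and 4.63% in del36 there. In del36 the span across the deletion is 37.2 kb nearer than its mirror, and its part in these ratios was not tested.

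**Figure D2:**
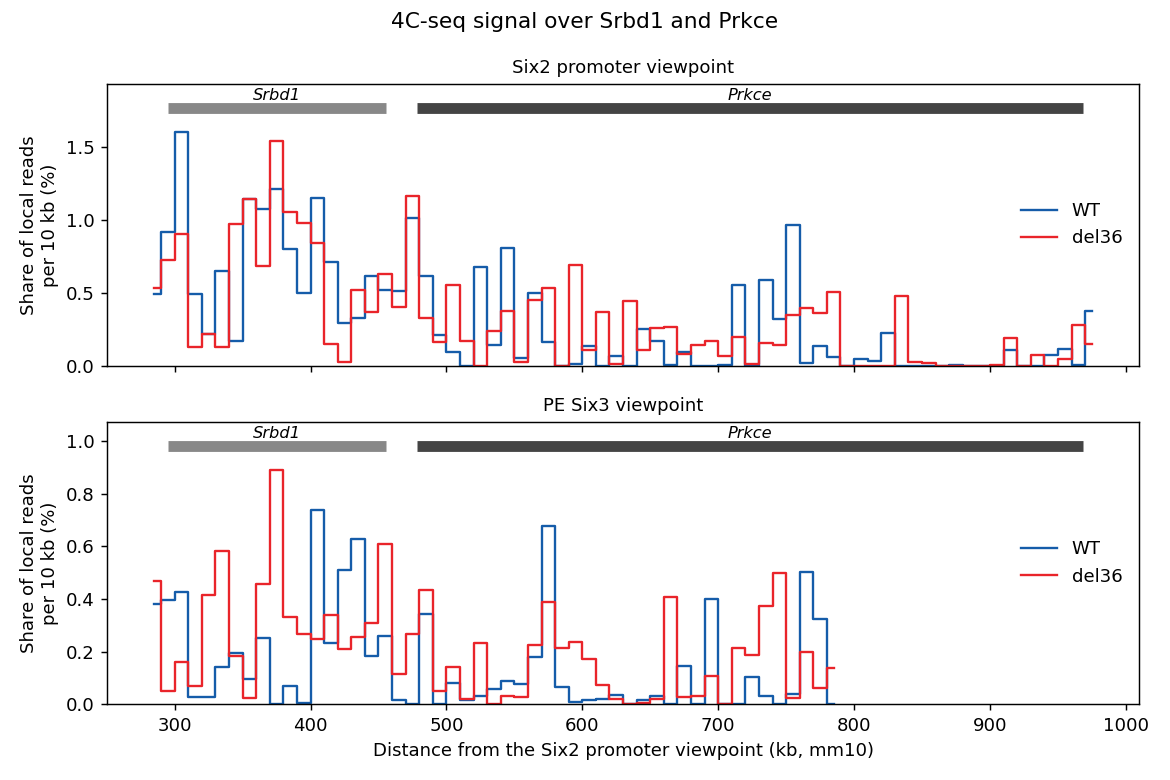
Share of local reads per 10 kb (y axis, percent) against distance from the Six2 promoter viewpoint (x axis, kb in mm10), from the Six2 promoter (top) and PE Six3 (bottom), in WT (blue) and del36 (red). Grey bars mark the genes, and the PE Six3 lines stop at the 1-Mb limit of that viewpoint. Signal was uneven along both genes: over its 50-kb steps Prkce ranged from 0.0109% to 1.90% in Six2 promoter WT and from 0.198% to 1.72% in Six2 promoter del36.

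In steps of 50 kb from the end of each gene nearer Six2, the differences were larger than over whole genes and ran both ways. A step was called where its share of local reads differed at least 1.5-fold and at least 1 library had 10 reads in it. From the Six2 promoter, 5 of 14 steps were called higher in del36 and 3 lower. Over all 36 steps in range from that viewpoint, outside the deleted stretch and the part left out, 38.9% were called higher and 11.1% lower. From PE Six3, 6 of 11 steps were called higher and 2 lower, against 42.9% and 22.9% of 35 steps. These background steps include those over the 2 genes. On the deposited RPM the Six2 promoter gave 6 steps higher and 1 lower. With the tallest fragment of each step left out, PE Six3 gave 8 higher and 0 lower of the 10 steps that could be measured. Shares over all steps in range are not given for these RPM and tallest-fragment counts, so they cannot be set against a background. The counts for the genes are small, and calls in each direction also occurred over the range as a whole. How many background steps outside the genes were called is not given. The median log2 ratio over the 14 gene steps was -0.03 from the Six2 promoter, against 0.30 over all 36. Over the 11 from PE Six3 it was 0.89, against 0.15 over all 35. The gene medians include the shorter last steps, and medians over full steps alone are not given.

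Srbd1 has 3 full steps and a last one of 10.6 kb. Its step 1 went from 3.44% in WT to 1.61% in del36 and step 4 from 0.711% to 0.178% from the Six2 promoter, and both were called lower. Of the WT reads of step 4, 72.7% lay on 1 fragment, and without the tallest fragment its log2 ratio was -0.63. Step 2, the highest of the gene in both libraries, went from 4.51% to 5.77%, and step 3 from 3.14% to 2.29%, neither past 1.5-fold. From PE Six3, step 2 went from 0.592% to 1.97%, the log2 ratio being 1.73 (1.68 to 1.78), and step 3 from 2.11% to 1.19%, a log2 ratio of -0.83 (-0.87 to -0.78). In PE Six3 WT the step 3 signal lay on 10 fragments, of which the tallest held 29.8%, and in del36 on 36. Step 1 went from 1.00% to 1.32%, and step 4 from 0.185%, all on 1 fragment, to 0.462%. Among the 3 full steps, step 2 held the highest share in 3 libraries and step 3 in PE Six3 WT. Per length, the short step 4 was higher still in PE Six3 del36, at 4.38% per 100 kb against 3.93% for step 2.

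Prkce has 9 full steps and a last one of 40.1 kb. Its WT share from the Six2 promoter was highest at step 6, 1.90%, and lay at 1.84% and 1.72% in steps 1 and 2. In del36 the highest was step 3 (86267785 to 86317784), which went from 0.225% on 5 fragments to 1.72% on 10, a log2 ratio of 2.93 (2.78 to 3.09). Step 4 went from 0.464% to 1.17%. Steps 8, 9 and 10, at the far end of the gene, went from 0.0109%, 0.109% and 0.192% to 0.534%, 0.198% and 0.402%. These last shares rest on 18, 180 and 318 WT reads on 2, 3 and 5 fragments. The tallest fragment held 94.4%, 98.9% and 60.1% of these WT reads, and 59.6%, 95.7% and 69.9% of the del36 reads. Step 2 was lower, at 1.10% in del36, and steps 1, 5, 6 and 7 differed less than 1.5-fold.

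From PE Six3, Prkce step 3 went from 0.179% to 0.712%, a log2 ratio of 1.99 (1.90 to 2.07), and step 4 from 0.174% to 0.441%, a log2 ratio of 1.34 (1.24 to 1.43). Step 1 went from 0.472% to 0.876%, and step 7, cut to 18.0 kb by the range, from 0.0288% to 0.190%. Of the 349 WT reads of step 7, 99.7% lay on 1 fragment. Step 2 went from 1.047% to 0.670%, and 52.2% of its WT reads lay on 1 fragment. Steps 5 and 6 differed less than 1.5-fold, at 0.519% and 0.898% in WT and 0.450% and 1.27% in del36.

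**Figure D3:**
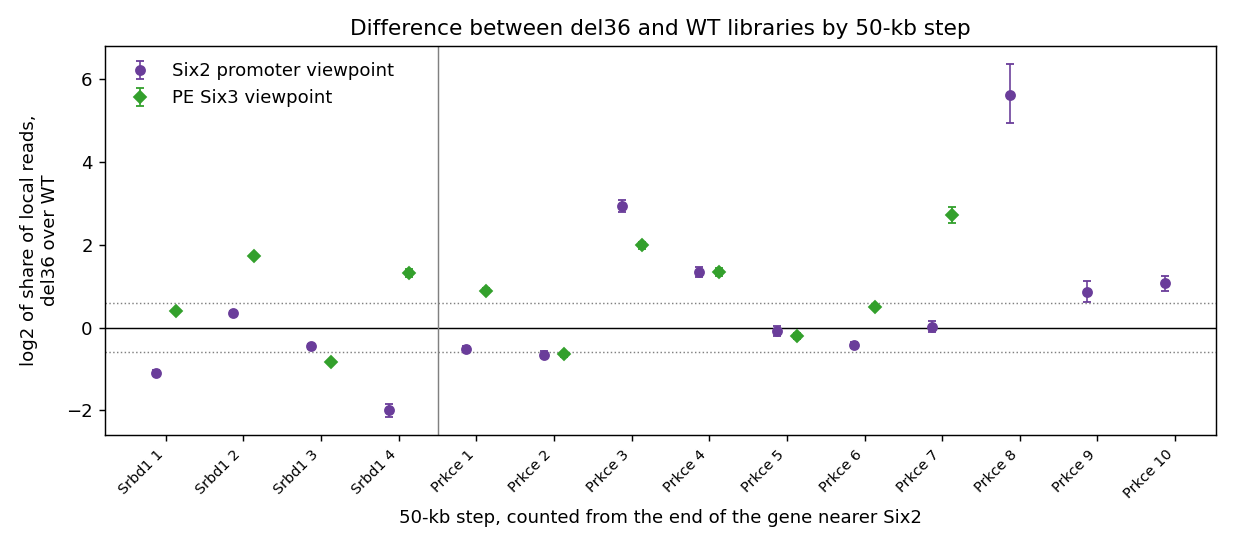
log2 ratio of the share of local reads, del36 over WT (y axis), for each 50-kb step of Srbd1 and Prkce (x axis), from the Six2 promoter (purple circles) and PE Six3 (green diamonds), with 95% exact conditional intervals for counting error. Dotted lines mark 1.5-fold. Steps 3 and 4 of Prkce lie above the upper line from both viewpoints and step 2 below the lower line from both, while step 4 of Srbd1 lies at -2.001 (circle) and 1.32 (diamond).

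The comparisons from the 2 viewpoints use different libraries. Of the 10 steps measured whole from both, 2 were called higher in del36 from both, which are steps 3 and 4 of Prkce, and 1 was called lower from both, step 2 of Prkce. Step 4 of Srbd1 was called in opposite directions, and 6 of the 10 had ratios of the same sign. No background share is given for opposite calls or for ratios of the same sign. Over the 30 steps of the background grid in range of both viewpoints, 6.67% were called higher from both and 3.33% lower from both. One of the 2 higher background steps, 86284665 to 86334664, is itself in Prkce and overlaps its steps 3 and 4. The 1 lower background step, 85834665 to 85884664, lies outside both genes. The lower call of Prkce step 2 from both viewpoints thus depended on where the steps began. Prkce steps 3 and 4 kept log2 ratios of 2.94 to 3.73 and 1.35 to 2.11 from the Six2 promoter, and of 1.37 to 2.15 and 0.72 to 1.39 from PE Six3, over 7 other settings each. The call for step 2 was less stable: from the Six2 promoter it was lost as a share of chromosome 17 reads (-0.56), of the Six2 side (-0.37) and on RPM (-0.10), and from PE Six3 without its tallest fragment (-0.30).

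The reads of both genes lay on few fragments, and how many recurred between libraries depended on the reads required. In PE Six3 WT, 5 fragments of Srbd1 and 4 of Prkce held 50% of the reads of the gene, counting Prkce in the common range. The numbers were 11 and 10 in PE Six3 del36, 10 and 9 in Six2 promoter WT and 17 and 14 in Six2 promoter del36. For both genes the WT library was the more concentrated of each pair. Counting every fragment with a read, WT and del36 from the Six2 promoter shared 47 of 86 and 106 fragments of Srbd1 (54.7% and 44.3%) and 26 of 73 and 74 of Prkce (35.6% and 35.1%). The PE Six3 pair shared 18 of 44 and 109 of Srbd1 (40.9% and 16.5%) and 12 of 54 and 91 of Prkce (22.2% and 13.2%). Over the whole common range, shared fragments by this count made up 50.1% and 41.0% in the Six2 promoter pair. In the PE Six3 pair they made up 46.0% and 31.2%. Among fragments with at least 10 reads, Srbd1 had 50 in Six2 promoter WT and 90 in del36, of which 13 were the same, 26% and 14.4% of each set. For Prkce 2 were the same of 47 and 60, 4.26% and 3.33%. From PE Six3 8 fragments of Srbd1 were the same of 35 and 91, and 2 of Prkce of 47 and 74. Over the whole common range, shared fragments with at least 10 reads made up 21.4% and 13.5% of the Six2 promoter sets. They made up 34.4% and 22.0% of the PE Six3 sets. The shares for Prkce were below these in both pairs, and those for Srbd1 below in the PE Six3 pair, at 22.9% and 8.79%.

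**Figure D4:**
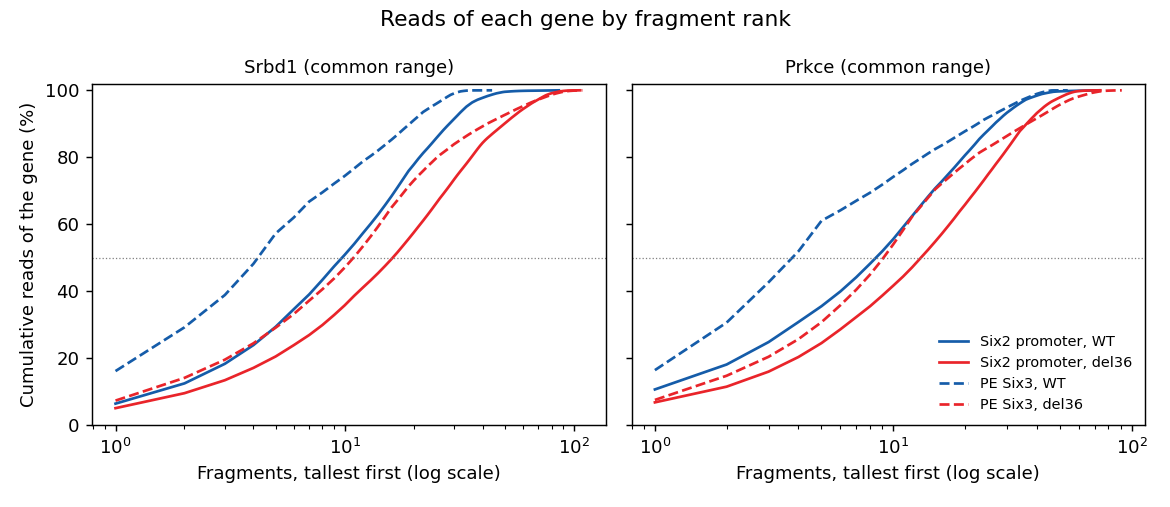
Cumulative reads of each gene (y axis, percent of the reads of the gene in the common range) against the number of fragments taken, tallest first (x axis, log scale), in the 4 libraries. Solid lines are the Six2 promoter and dashed lines PE Six3, blue WT and red del36. The PE Six3 WT line rises fastest for both genes, with 74.4% of Srbd1 and 74.2% of Prkce reads on 10 fragments.

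The 3 tallest fragments of each gene in each library made up 22 distinct fragments, and none had reads in all 4 libraries. Of all fragments of the genes with reads, at any height, 3 of 251 of Srbd1 and 0 of 244 of Prkce had reads in all 4. No such share over all fragments in range is given, so these counts cannot be set against a background. In Srbd1 the tallest were 86063833 to 86063855 in Six2 promoter WT, with 1258 reads and 393 in del36, and 86039354 to 86039892 in Six2 promoter del36, with 1193 reads and 1 in WT. From PE Six3 they were 86122336 to 86122877 in WT, with 7629 reads and 0 in del36, and 86050778 to 86051223 in del36, with 1290 reads and 1 in WT. In Prkce 1 tall fragment recurred at depth in both Six2 promoter libraries: 86439810 to 86440566 had 1232 reads in WT and 833 in del36, and 0 from PE Six3. Another, 86422425 to 86422807, had 772 reads in Six2 promoter WT and 1238 in PE Six3 del36, but 0 in Six2 promoter del36 and 1 in PE Six3 WT. Of the 6 tallest fragments chosen in Six2 promoter del36, 5 had exactly 1 read in Six2 promoter WT. Of the 6 chosen in PE Six3 del36, 3 had 1 read and 2 had none in PE Six3 WT. For each WT library, 4 of its 6 had no read in its del36 partner. The same counts for tall fragments elsewhere in range are not given, so these are not shown to be particular to the genes. Over the common range, 259 of the 352 fragments shared by the Six2 promoter pair had under 10 reads in at least 1 library. Where the single reads came from was not tested.

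The ends of both genes were measured in windows reaching 5 kb to both sides, because the table used carries no strand for them. Their facing ends lie 22.6 kb apart. At the Srbd1 end toward Prkce, Six2 promoter WT had 1 read and del36 1502 reads on 10 fragments, and from PE Six3 the share went from 0.258% on 2 fragments to 0.618% on 8. With 10 kb on each side the log2 ratio from the Six2 promoter was 0.15, so the contrast of 1 and 1502 reads rests on the size of the window, and that from PE Six3 was 1.10. At the Prkce end toward Srbd1, the Six2 promoter share was 1.51% in WT and 1.497% in del36, a log2 ratio of -0.01 (-0.09 to 0.06). From PE Six3 that window had 0 reads in WT, which allows a share of up to 0.000247%, and 179 reads in del36, or 0.0504%. With 10 kb on each side it held 4160 reads on 2 fragments, or 0.343%, in WT and 0.706% in del36, a log2 ratio of 1.04, so the contrast of 0 and 179 reads also rests on the size of the window. The stretch between the genes as a whole went from 1.25% to 2.05% of local reads from the Six2 promoter and from 0.275% to 0.796% from PE Six3, log2 ratios of 0.71 and 1.54.

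At the Srbd1 end toward Six2 the share was lower in del36 from both viewpoints: 0.915% to 0.729% from the Six2 promoter, and 0.397% to 0.0488% from PE Six3, where 88.6% of the WT reads lay on 1 fragment. With 10 kb on each side the log2 ratios were -0.85 and -2.08, in place of -0.33 and -3.03. The far end of Prkce, in range only from the Six2 promoter, had 17 reads in WT and 668 in del36, all of the latter on 1 fragment. With 10 kb on each side that log2 ratio was 0.16.

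At the promoters printed above, only that of 2010106C02Rik held more signal in del36 from both viewpoints. Its window, inside step 3 of Prkce, had 29 Six2 promoter WT reads on 1 fragment and 1638 del36 reads on 5, 0.0176% and 0.690% of local reads. From PE Six3 it had 277 WT reads on 2 fragments and 898 del36 reads on 3, 0.0228% and 0.253%. The tallest fragment held 41.8% of the Six2 promoter del36 reads, and 64.6% and 81.3% of the PE Six3 WT and del36 reads. The log2 ratios were 5.30 (4.77 to 5.88) and 3.47 (3.27 to 3.67), and with 10 kb on each side 5.30 and 3.84. The Gm52296 window, in step 2, held less in del36: 0.0527% and 0.0253% from the Six2 promoter, on 87 and 60 reads, and 0.161% and 0.0544% from PE Six3. The Gm30284 window, in step 6, went from 0.962% to 0.352% from the Six2 promoter and from 0.0510% to 0.0245% from PE Six3. With 10 kb on each side the Gm52296 ratio from the Six2 promoter turned to 0.07 and the Gm30284 ratio from PE Six3 to 1.92. No share of windows of this size with the same direction from both viewpoints is given over the range. The promoters were shown because of the directions of steps 2 and 3. The reads of the Gm52296 and 2010106C02Rik windows are part of those steps, so their directions are not separate support.

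**Figure D5:**
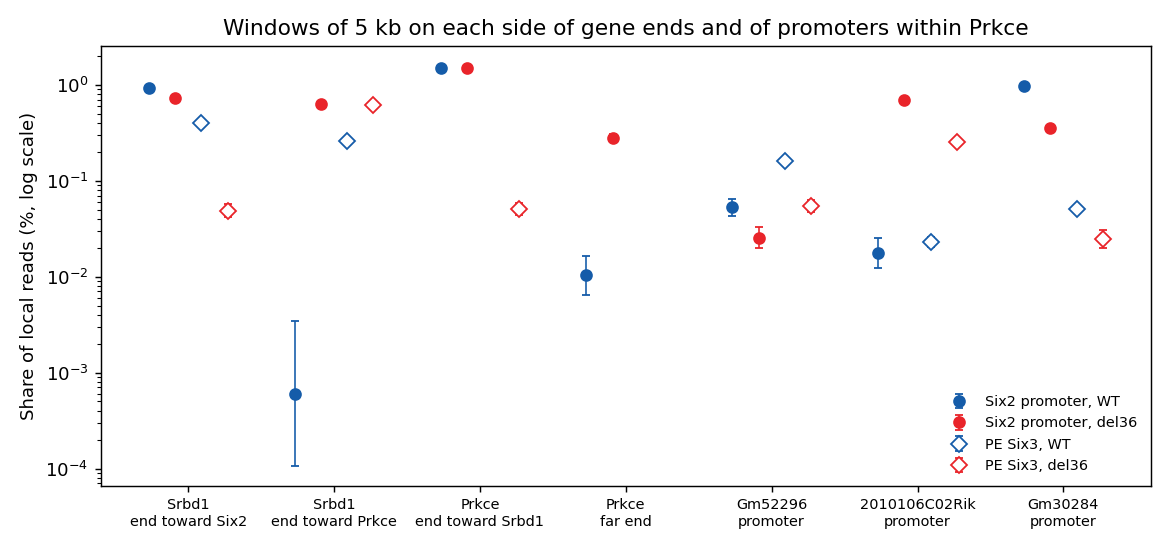
Share of local reads (y axis, percent, log scale) in windows reaching 5 kb to both sides of the gene ends and the promoters inside Prkce (x axis), in the 4 libraries, with 95% Wilson intervals. The window with 0 reads, the Prkce end toward Srbd1 in PE Six3 WT, is not drawn, and the far end of Prkce is in range only from the Six2 promoter. Both del36 symbols stand above both WT symbols at the 2010106C02Rik promoter, at 0.690% and 0.253% against 0.0176% and 0.0228%. The promoters were chosen after the values of their steps were seen.

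Against the other protein-coding genes of the common range, Srbd1 and Prkce differed in where their ratios lay. Leaving out Six2, which overlaps the deleted stretch, 6 of the other 7 genes were higher in del36 from the Six2 promoter, with a median log2 ratio of 0.72, and 1 of 7 was higher from PE Six3, with a median of -0.50. All 7 lie on the other side of the deletion. Srbd1 was at -0.25 and 0.40 and Prkce at 0.17 and 0.53, in the same order of viewpoints. By Euclidean distance between pairs of ratios, over 2 viewpoints only, the genes nearest to Srbd1 were Prkce (0.44) and Six2 (0.48), and those nearest to Prkce were Srbd1 (0.44) and Six3 (0.62). Six2 is a homeobox gene of kidney progenitors whose measured span is partly deleted, and Six3 one needed for the developing forebrain and eye.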

How the data were processed

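Cells were profiled by 4C-seq with NlaIII and DpnII, per the labels' protocols. The authors deposited each library as restriction fragments with values in RPM, scaled to the library total, per the file headers. The submitters' processing notes name HISAT2 and mm10, with neither a version nor read filters. All values were whole multiples of the smallest in their library within a tolerance of 0.1 (100% of values), so reads were recovered by division. A count test was not run, since there is 1 library per condition. Fragments were assigned by their midpoint, and the fragment with most reads was the viewpoint. Shares have Wilson intervals and log2 ratios exact conditional intervals (scipy 1.17.1, Python 3.11.15). The functions were tested on simulated data. Gene spans came from RefSeq (GRCm38.p6). Named items were both genes, each 50-kb step, both gene ends, the 3 tallest fragments per gene and library, and the 2 genes with the nearest ratios. The genes, steps and lists were chosen with earlier results of these data known. Alternatives changed the total, the range, the part left out, tall and low fragments, the span, the step and the measure. The other 9 of 13 files concern viewpoints at Gata6 and Gria1 and were not used here.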

Additional observations from a re-analysis of the deposited data

Results flagged for a closer look

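Srbd1 differed in opposite directions from the 2 viewpoints: its log2 ratio of del36 over WT was -0.26 at the Six2 viewpoint and 0.34 at PE Six3, a difference of 0.61. With 1 library on each side of each ratio, this difference was not tested, and on the deposited RPM both ratios were above 0. Of the 10 steps measured whole from both viewpoints, only the last 10.6 kb of Srbd1 was called in opposite directions. Its ratios were -2.001 and 1.32, a difference of 3.32, also not tested. No share of background steps called in opposite directions is given beside it. The difference rests on 1175 and 422 WT and del36 reads with the Six2 viewpoint, and on 2240 WT reads of 1 fragment with PE Six3. Without the tallest fragment, which held 72.7% of the WT reads, the ratio at the Six2 viewpoint was -0.63 in place of -2.001.

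The 172 kb of Prkce beyond 1 Mb of PE Six3 lies outside the measured range. It had 4653 reads on 20 fragments in PE Six3 del36, which equals 1.31% of local reads, against 5185 reads on 14 fragments and 0.428% in PE Six3 WT. As shares of chromosome 17 reads outside the viewpoint these were 0.970% and 0.326%. From the Six2 promoter, where this stretch is in range, the shares of local reads were 1.13% in del36 and 0.619% in WT.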

How the results depend on the processing

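The whole-gene ratios depended on the total. Against the Six2 side alone, Srbd1 turned to 0.020 from the Six2 promoter and, with PE Six3, to -0.27, and Prkce was at 0.44 and turned to -0.14. On the deposited RPM from the Six2 promoter, Srbd1 turned to 0.29 and Prkce was at 0.79. In covered length Srbd1 turned to 0.039 and Prkce to -0.16 from the Six2 promoter, and PE Six3 gave 0.81 and 0.14. As shares of chromosome 17 reads Srbd1 was at -0.17 and 0.30 and Prkce at 0.33 and 0.43. With the deleted stretch left out of the total Srbd1 was at -0.38 and 0.29 and Prkce at 0.12 and 0.42. Over the common range Srbd1 was at 0.40 from PE Six3 and Prkce at 0.17 and 0.53. With 25 kb left out beside the viewpoint PE Six3 gave 0.30 and 0.43. Without its tallest fragment Srbd1 was at 0.48 from PE Six3 and Prkce at 0.29 and 0.62. With 5 kb added to each side of the span, the Six2 promoter gave -0.17 and 0.27. In steps of 25 kb, 11 were higher and 10 lower of 27 from the Six2 promoter, and PE Six3 gave 10 and 5 of 20. In steps of 100 kb the counts were 3 and 1 of 7, and 3 and 0 of 6. Over the common range 3 of 11 steps were higher from the Six2 promoter. For these step sizes and this range no share over all steps is given, so the counts cannot be set against a background. Windows of 10 kb on each side, and the single steps under the whole-gene settings, were added after seeing the data. The wider windows turned the Gm52296 ratio from the Six2 promoter to 0.068 and the Gm30284 ratio from PE Six3 to 1.92. No called step changed sign, but calls were lost: 2 of 8 from the Six2 promoter on RPM, and 2 of 8 from PE Six3 without the tallest fragment of the step, which left Srbd1 step 4 without a value. The cause of these changes was not tested. No paired analysis was possible because each condition has 1 library. Shares from under 100 reads are limited by depth.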
